A study of Homo sapiens with 12 samples.

Results

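Kisspeptin, its receptor and the related RFamide receptors were followed over 12 arrays of Ishikawa cells. The members are the probe sets annotated to KISS1, KISS1R, NPFFR1, NPFFR2, PRLHR or QRFPR. They are 6 genes of the 19775 with a probe set of their own, each read by 1 probe set, among 54613 probe sets tested. Ishikawa is an established human line of endometrial adenocarcinoma. All cells were transfected for 48 h with either a negative control siRNA or an siRNA specific for GPR54, the older name of the KISS1R product, and were then given a peptide for 24 h. The peptide was metastin-10, also called kisspeptin-10, at 10 µM, or a control peptide. Each pairing of siRNA and peptide had 3 arrays, which gives 4 groups. Every group thus carried both a transfected siRNA and a peptide, and all came from 1 cell line. The labels call the 3 arrays of a group biological replicates without saying how they were separated, so p-values measure the spread between these arrays only. The design addressed what metastin-10 changes and whether it does so through GPR54.

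KISS1 encodes a secreted precursor from which the kisspeptins are cut, all ending in the same amidated arginine-phenylalanine (RFamide) end. The kisspeptin receptor couples through Gq and G11 to phospholipase C and calcium release. It is best known for driving gonadotropin-releasing hormone neurons, while KISS1 was named as a suppressor of metastasis and is abundant in placenta. Other RFamide peptides have receptors of their own: NPFFR1 and NPFFR2 bind RFamide-related peptide and neuropeptide FF, PRLHR binds prolactin-releasing peptide, and QRFPR binds the peptide made from QRFP. NPFFR1 and NPFFR2 can also bind kisspeptin-10, which makes them alternative receptors for the peptide given here.

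Values are the deposited RMA expression values on a log2 scale, on which 1 unit is a doubling. Values of different probe sets are not comparable as amounts of RNA, and since detection calls were not used here, a dim probe set may lie at background. Array medians ran from 5.13 to 5.22. In RNA control probes the replicate 3 array of every group differed from the rest: its beta-actin 3 prime minus 5 prime difference was 0.29 to 0.36, against 0.66 to 0.90 in the other 8 arrays. On the second principal component (21.4% of variance), 2 arrays stood out, those of metastin-10 after control siRNA numbered 1 (0.66) and 2 (0.46), while every other array fell between -0.30 and 0.17.

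The receptor was the only one of the 6 genes that passed the test in any comparison, and its level was set apart in 1 group. KISS1R (probe set 242517_at) read 9.39, 9.32 and 9.14 in replicates 1, 2 and 3 of control siRNA with control peptide. After control siRNA plus metastin-10 it read 8.43, 8.42 and 8.35. With GPR54 siRNA and control peptide it read 9.46, 9.45 and 9.36. With GPR54 siRNA and metastin-10 it read 9.60, 9.42 and 9.28. The 3 arrays of control siRNA with metastin-10 were the lowest of all 12, and no array of another group came below 9.14. The other 3 groups overlapped each other. In each group the replicate 3 array was the lowest.

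The siRNA label was checked on its target before the peptide was read. In cells given control peptide, KISS1R averaged 9.42 ± 0.05 (SD, n = 3) in the arrays labelled GPR54 siRNA and 9.28 ± 0.13 with control siRNA. The difference was 0.14 ± 0.10 (log2, SE; 95% interval -0.07 to 0.35), and limma gave an adjusted p of 0.999786 with an unadjusted p of 0.17. The lower end of that interval lies at 95.2% of the control level, so a deeper loss of the signal at this 1 probe set was outside it. Between same-numbered arrays the labelled arrays lay above the control by 0.07, 0.13 and 0.23. A lower KISS1R signal was thus not seen under its own siRNA, and these groups are named by their label only. The sample titles call the cells with this label GPR54-suppressed, and those of control siRNA with control peptide non-treated. Where along the transcript the siRNA acts is not known here, and protein was not measured. None of the 6 members was called in this comparison, in which 0.0531% of all probe sets were called, and 1 of the 6 had an unadjusted p under 0.05, against 4.25%.

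With control siRNA, metastin-10 went with a level of KISS1R mRNA at 0.54 of that with control peptide. KISS1R fell by 0.88 ± 0.10 (log2, SE; 95% interval -1.09 to -0.67), a 1.84-fold decrease with a limma adjusted p of 0.00213. Between same-numbered arrays the differences were -0.96, -0.90 and -0.78. In these bulk samples, fewer cells that express the gene and less of its RNA per cell cannot be told apart. In this comparison 1 of 6 members was called, against 0.428% of all probe sets in either direction and 0.386% lower. An unadjusted p under 0.05 was found for 2 of 6, against 10.6%. KISS1R stood 19th of 54613 by p. With the metastin-10 group reduced to replicate 3, the array that did not stand apart on the second component, the difference was -0.93 (adjusted p = 0.153 by limma, with the lone array assumed to vary like the other groups). With replicates 1 and 2 alone in every group it was -0.93 (adjusted p = 0.0138).

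In the arrays labelled GPR54 siRNA, the same peptide left KISS1R at 9.43 ± 0.16 against 9.42 ± 0.05 (SD, n = 3). The difference was 0.01 ± 0.10 (SE; 95% interval -0.20 to 0.22; limma adjusted p = 0.999997). The lowest level that this interval allows is 86.8% of the control peptide level. By replicate number the differences were 0.14, -0.03 and -0.09, without a common sign. The limma fit called 0 of the 6 members and 0% of all probe sets here, and 0 of the 6 had an unadjusted p under 0.05, against 2.21% of all probe sets.

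Among cells given metastin-10, KISS1R was higher in the arrays labelled as its knockdown than with control siRNA. The difference was 1.03 ± 0.10 (log2, SE; 95% interval 0.82 to 1.24), a 2.04-fold higher level with a limma adjusted p of 0.000391. By replicate number it ran from 0.92 to 1.16. This comparison uses the same control siRNA, metastin-10 arrays as the fall described above. KISS1R was again the 1 member called of 6, against 0.579% of all probe sets in either direction and 0.527% higher, and 2 of 6 had an unadjusted p under 0.05, against 10.1%. With the control siRNA, metastin-10 group reduced to replicate 3 the difference was 1.08 (adjusted p = 0.0559).

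The effect of metastin-10 on KISS1R differed between the siRNA labels, by a margin that only just passed the test. The interaction (the difference made by metastin-10 under the GPR54 siRNA label, less that under control siRNA) was 0.89 ± 0.14 (log2, SE; 95% interval 0.59 to 1.19; limma adjusted p = 0.049955). It was called for 1 of 6 members and 0.0513% of all probe sets (0.0458% higher), and 1 of 6 had an unadjusted p under 0.05, against 6.09%. KISS1R was the last of the 28 probe sets that passed. Leaving out any array other than replicate 3 of the arrays labelled GPR54 siRNA with metastin-10 ended this call, with differences from 0.81 to 0.97 and adjusted p from 0.0369 to 0.198 over the 12 such fits. With the replicate number as a block the adjusted p was 0.0228, and with each array centred on its median it was 0.0718.

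**Figure D1:**
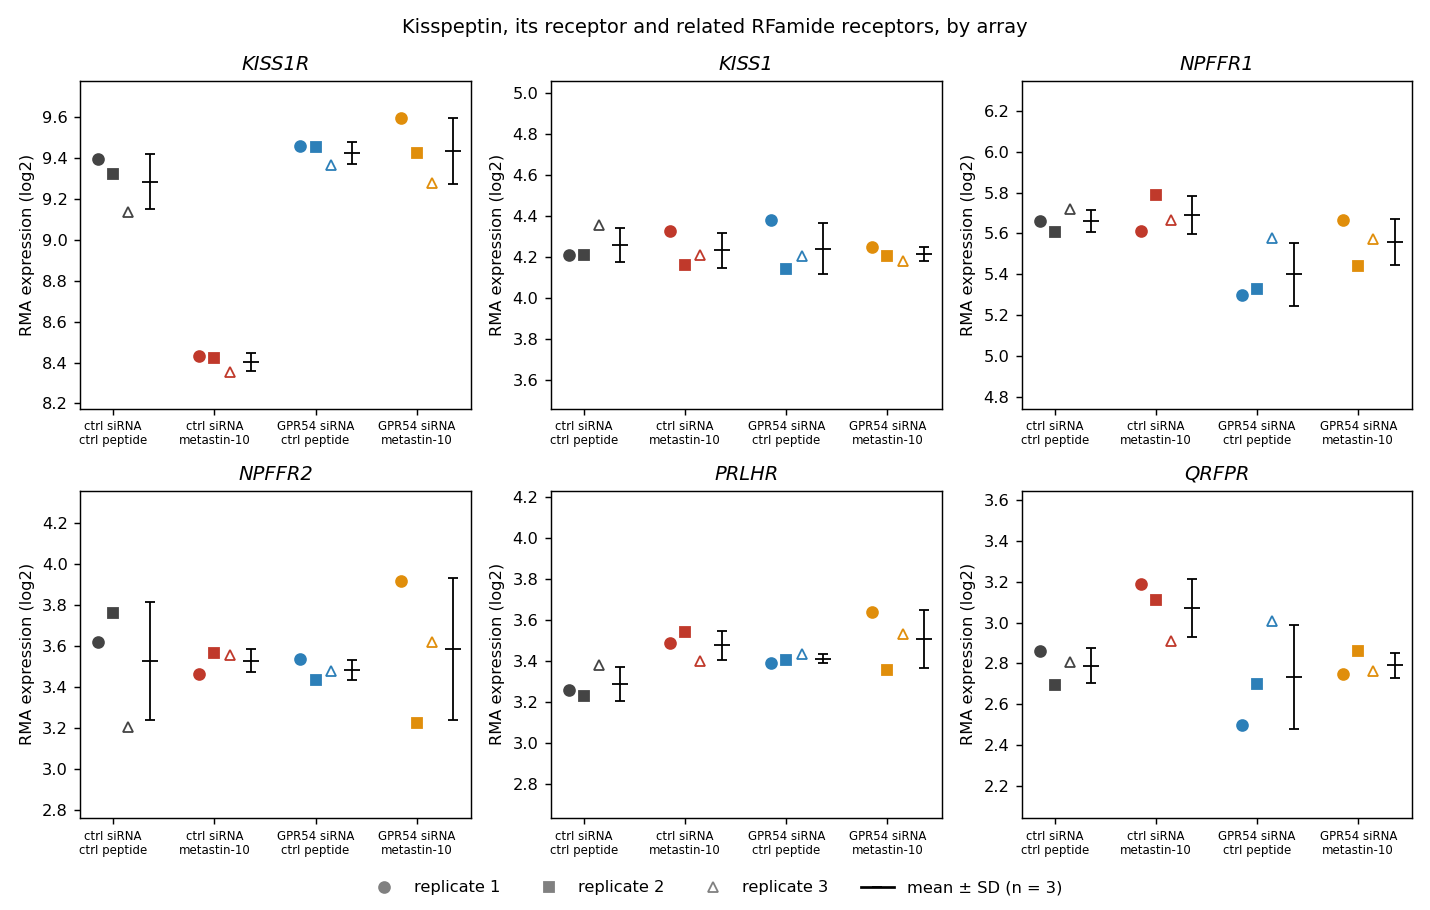
RMA expression (log2) of each member in every array, by siRNA and peptide group; symbols mark replicates and the black bar is the group mean ± SD (n = 3). Each panel spans 1.6 log2 units on its own axis. KISS1R in control siRNA with metastin-10 sits between 8.35 and 8.43, below the 9.14 to 9.60 of the other 9 arrays, and no other member separates 1 group from all the rest.

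KISS1, the ligand gene, was not called in any comparison. Its probe set (205563_at) read 4.21, 4.21 and 4.36 with control siRNA and control peptide, against 4.33, 4.16 and 4.21 after control siRNA plus metastin-10. In the arrays labelled GPR54 siRNA it read 4.38, 4.14 and 4.20 with control peptide and 4.25, 4.21 and 4.18 with metastin-10. All 4 groups overlapped, and the range of their means, 0.05, was smaller than the pooled SD within groups, 0.09. The metastin-10 difference was -0.03 ± 0.09 with control siRNA (SE; 95% interval -0.22 to 0.16; limma adjusted p = 0.948) and -0.03 ± 0.09 under the GPR54 siRNA label (-0.22 to 0.16). A change of the KISS1 signal beyond about 0.22 in either comparison thus lies outside the interval. Whether this probe set is above background in these cells is not known.

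The alternative receptors for kisspeptin-10 were not called in any of the 5 comparisons. NPFFR1 (221387_at) read 5.66, 5.61 and 5.72 with control siRNA and control peptide, against 5.61, 5.79 and 5.67 after control siRNA plus metastin-10, so these groups overlapped. In the arrays labelled GPR54 siRNA it read 5.30, 5.33 and 5.58 with control peptide and 5.67, 5.44 and 5.57 with metastin-10. Its metastin-10 difference was 0.03 ± 0.10 with control siRNA (SE; 95% interval -0.18 to 0.24) and 0.16 ± 0.10 under the GPR54 siRNA label (-0.05 to 0.37). Given control peptide, all 3 arrays of the GPR54 siRNA label lay below the control siRNA arrays, by -0.26 ± 0.10 (-0.47 to -0.05). That had an unadjusted p of 0.02 and a limma adjusted p of 0.994, and groups that do not overlap were found for 9.76% of all probe sets in this comparison. By replicate number these differences were -0.36, -0.28 and -0.14.

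NPFFR2 (224169_at) was the most variable member within groups, with a pooled SD of 0.23. It read 3.62, 3.76 and 3.20 with control siRNA and control peptide, against 3.46, 3.56 and 3.56 after control siRNA plus metastin-10. Under the GPR54 siRNA label it read 3.54, 3.44 and 3.48 with control peptide and 3.92, 3.22 and 3.62 with metastin-10. All groups overlapped, and their means spanned 0.10. The metastin-10 difference was 0.003 ± 0.16 with control siRNA (95% interval -0.35 to 0.36) and 0.10 ± 0.16 under the GPR54 siRNA label (-0.25 to 0.46). These are the widest intervals among the members, and they allow differences of the signal of up to 0.46. All values of NPFFR2 lay below the array medians of 5.13 to 5.22. This probe set may thus lie at background, where its interval would not bound a change of the RNA.

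The receptors for prolactin-releasing peptide and for the QRFP peptide read higher in all 3 metastin-10 arrays than in any control peptide array under control siRNA, without passing the test. Groups did not overlap for 16.6% of all probe sets in this comparison. Marker lists of low median level also shifted up there (stromal 0.11, endothelial 0.11, leukocyte 0.23). Brighter ones shifted down (epithelial -0.23, endometrial or Mullerian -0.16). PRLHR (231805_at) read 3.26, 3.23 and 3.38 with control peptide and 3.49, 3.54 and 3.40 with metastin-10, so the groups did not overlap. The difference was 0.19 ± 0.09 (log2, SE; 95% interval -0.004 to 0.38; limma adjusted p = 0.479). By replicate number it was 0.23, 0.32 and 0.02. In the arrays labelled GPR54 siRNA, PRLHR read 3.39, 3.41 and 3.44 with control peptide and 3.64, 3.36 and 3.53 with metastin-10, a difference of 0.10 ± 0.09 between groups that overlap. With control peptide its arrays labelled GPR54 siRNA also lay above those of control siRNA, at 0.12 ± 0.09 (95% interval -0.07 to 0.31). The limma adjusted p was 0.999786, and groups did not overlap for 9.76% of all probe sets in that comparison.

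QRFPR (1555533_at) read 2.86, 2.69 and 2.81 with control siRNA and control peptide, against 3.19, 3.11 and 2.91 with metastin-10. These groups did not overlap either, and the difference was 0.28 ± 0.12 (SE; 95% interval 0.02 to 0.54), with an unadjusted p of 0.037 and a limma adjusted p of 0.437. By replicate number it was 0.33, 0.42 and 0.10, so larger in the 2 arrays that stood apart on the second component. All values of QRFPR and PRLHR lay below the array medians of 5.13 to 5.22, so both may lie at background. Under the GPR54 siRNA label QRFPR read 2.50, 2.70 and 3.01 with control peptide and 2.75, 2.86 and 2.76 with metastin-10. There the metastin-10 difference was 0.06 ± 0.12 (-0.21 to 0.32). Among the metastin-10 arrays the siRNA labels also did not overlap, at -0.28 ± 0.12 (adjusted p = 0.457). The interaction was -0.23 ± 0.17 (-0.60 to 0.14; adjusted p = 0.941), so a difference between the siRNA labels in the effect was not established for QRFPR.

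Counts of groups that do not overlap were set beside those over the whole array. In the metastin-10 comparison with control siRNA, the groups did not overlap for 3 of 6 members (KISS1R lower, PRLHR and QRFPR higher), and this held for 16.6% of all probe sets. In the siRNA comparison with control peptide it held for 2 of 6 (NPFFR1 lower, PRLHR higher), against 9.76%, and with metastin-10 for 2 of 6 (KISS1R higher, QRFPR lower), against 13.7% of all probe sets. In the metastin-10 comparison under the GPR54 siRNA label it held for 0 of 6, against 5.57%. The median difference over the 6 members was 0.02, 0.08, -0.03 and 0.006 in the comparisons of metastin-10 with control siRNA, metastin-10 under the GPR54 siRNA label, the siRNA label with control peptide and the siRNA label with metastin-10. Over all tested probe sets the medians of these comparisons were 0.01, -0.004, 0.01 and -0.007.

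**Figure D2:**
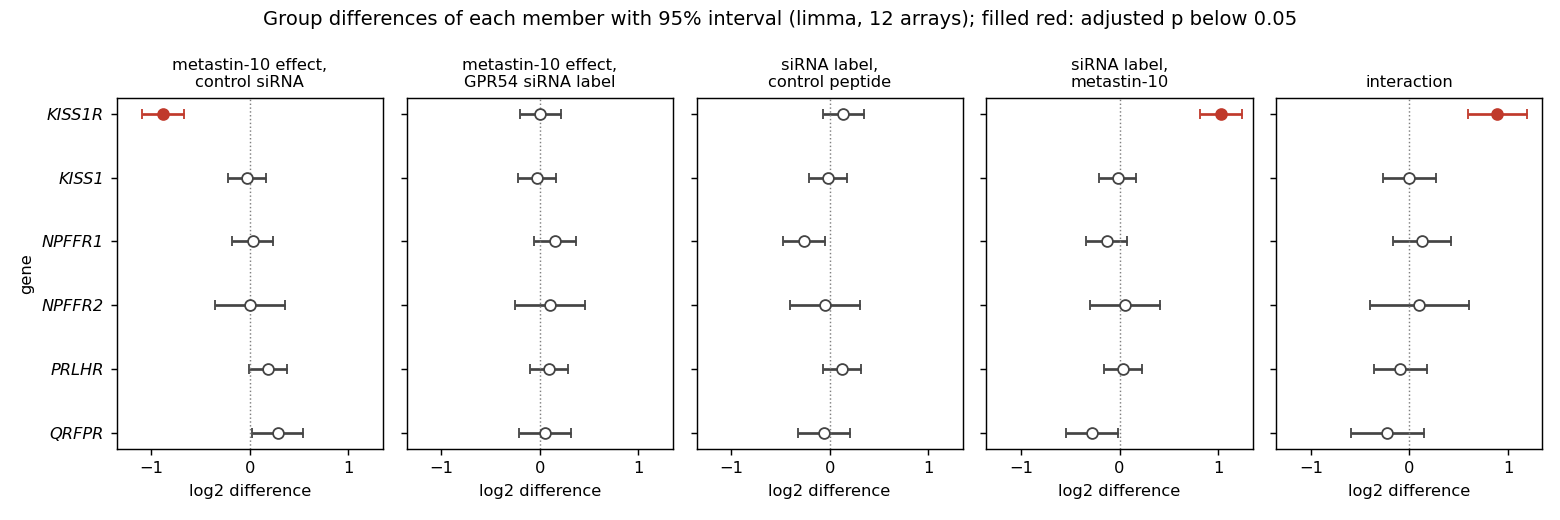
Log2 difference of each member in the 5 comparisons, with its 95% interval from limma over 12 arrays (horizontal axis, log2 units; 0 is no difference); filled red points passed the adjusted threshold of 0.05. KISS1R passes at -0.88, 1.03 and 0.89, and all other points are open.

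The order of the group means was not the same for all members. For KISS1R it ran from GPR54 siRNA with metastin-10 (9.43) and GPR54 siRNA with control peptide (9.42) to control siRNA with control peptide (9.28), and these did not differ beyond their spread. Control siRNA with metastin-10 (8.40) came last and lay below each of them. QRFPR had that last group as its highest, at 3.07 ± 0.14 (SD, n = 3), with the others between 2.73 and 2.79. PRLHR had GPR54 siRNA with metastin-10 highest (3.51 ± 0.14) and control siRNA with control peptide lowest (3.29 ± 0.08). NPFFR1 had control siRNA with metastin-10 highest (5.69 ± 0.09) and GPR54 siRNA with control peptide lowest (5.40 ± 0.15).

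Across the 12 arrays, 262 of 19774 other genes had a Pearson r above 0.9 with KISS1R and 17 had one below -0.9, each gene being read by its brightest probe set. The 12 arrays come from 4 groups, and the 1 group that holds the low values weighs most in these coefficients. The 8 genes most alike were KLF4 (r = 0.991), AK4 (0.989), MXI1 (0.989), CDKN1C (0.985), NRN1 (0.984), COL6A1 (0.982), CFAP96 (0.981) and BTG1 (0.981). KLF4 is a zinc finger transcription factor, AK4 a mitochondrial adenylate kinase, MXI1 an antagonist of MYC, and CDKN1C the cyclin-dependent kinase inhibitor p57. NRN1 encodes neuritin, COL6A1 a collagen VI chain, and BTG1 an antiproliferative protein. Spearman's rho for these 8 was between 0.80 (CFAP96) and 0.99 (AK4). Ranked by rho instead of r, 2 of the 8 remained among the 8 most alike.

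Because these 8 genes were chosen on the same 12 arrays, their differences are given as a description with no test. With metastin-10 under control siRNA they ran from -0.90 (CFAP96) to -0.49 (KLF4), with CDKN1C and NRN1 at -0.77 and MXI1 at -0.68. MXI1 read 9.27, 9.36 and 9.08 with control siRNA and control peptide, against 8.61, 8.55 and 8.50 with control siRNA and metastin-10. In the arrays labelled GPR54 siRNA it read 9.49, 9.45 and 9.24 with control peptide and 9.55, 9.40 and 9.27 with metastin-10. As with KISS1R, replicate 3 was the lowest array of MXI1 in each group.

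The same genes are described outside the low group, although those arrays also took part in their choice. Over the 9 arrays of the other 3 groups, r with KISS1R was 0.96 for AK4, 0.93 for CDKN1C, 0.92 for MXI1, 0.88 for KLF4, 0.84 for CFAP96, 0.82 for NRN1 and BTG1, and 0.78 for COL6A1. After each group's mean was taken from its arrays, r over the 12 arrays was highest for AK4 (0.93) and lowest for BTG1 (0.58). The replicate 3 arrays, which had the lower beta-actin 3 prime minus 5 prime difference, were also those low in KISS1R, and the part of that in these coefficients was not tested. With replicate 3 removed as a batch, 5 of the 8 genes remained among the 8 most alike.

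The 4 most opposite genes were TNFRSF21, a death receptor of the tumour necrosis factor family (r = -0.957), AMIGO2, an adhesion protein (-0.952), RRS1, a ribosome assembly factor (-0.947), and ODC1, the rate-limiting enzyme of polyamine synthesis (-0.946). With metastin-10 under control siRNA their differences were 0.61 for AMIGO2, 0.23 for TNFRSF21, 0.25 for RRS1 and 0.15 for ODC1, again given with no test. Over the other 9 arrays their r with KISS1R lay between -0.55 and -0.03. The other members were not among these genes: r with KISS1R was -0.71 for QRFPR, -0.52 for NPFFR1, -0.19 for PRLHR, -0.006 for KISS1 and 0.13 for NPFFR2. Over the 9 arrays outside the low group the value for QRFPR was -0.23.

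**Figure D3:**
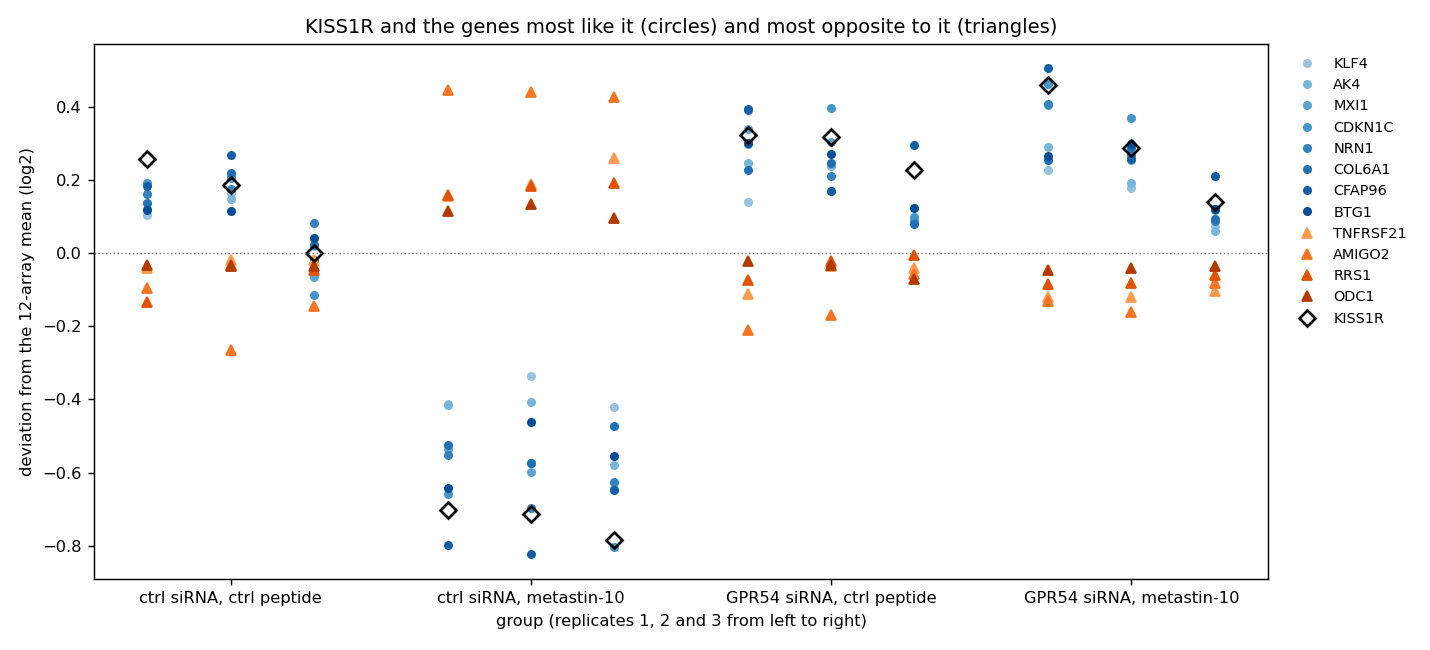
Deviation of KISS1R (open diamonds), the 8 genes most like it (blue circles) and the 4 most opposite (orange triangles) from their own 12-array mean (log2, vertical axis), array by array in the 4 groups. KISS1R and the 8 genes lie below 0 in all 3 arrays of control siRNA with metastin-10, where AMIGO2 and the other opposite genes lie above it.

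The genes next to KISS1R on its chromosome, looked up after its values were seen, did not pass. The nearest neighbours with a probe set on each side were R3HDM4 and ARID3A. With metastin-10 under control siRNA, the R3HDM4 probe sets were at 0.009 and -0.05 (limma adjusted p = 0.984 and 0.911). ARID3A, which encodes a DNA-binding protein, was at -0.23 ± 0.10 and -0.29 ± 0.11 (SE; adjusted p = 0.459 and 0.39), the same sign as KISS1R without a call. The next genes out, MED16 and WDR18, were at -0.18 and 0.03 at their brightest probe sets.

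Of the RFamide ligand genes, no measured member was called in any comparison (4 of 5 measured, QRFP not among the named probe sets). Over all probe sets at most 0.579% were called in any comparison, so 0 calls is near that share for a list this short. The same holds for the other lists below without a call. With metastin-10 under control siRNA, PRLH, the precursor of prolactin-releasing peptide, was at 0.25 ± 0.10 (SE; limma adjusted p = 0.382) and NPVF, the precursor of the RFamide-related peptides, at 0.17 ± 0.13 (adjusted p = 0.681). NPFF was at 0.04, and with KISS1 the list had a median of 0.10, against 0.007 over all genes. The median level of this list was 4.81. Marker lists of similar level, from 4.39 to 4.82, also had medians above 0 there: stromal 0.11, endothelial 0.11, leukocyte 0.23. The brighter epithelial (-0.23) and endometrial or Mullerian (-0.16) lists lay below 0, so the 0.10 is not particular to RFamide genes.

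Peptide receptors related to KISS1R, such as the galanin, neuropeptide Y and somatostatin receptors, were not called either (19 of 20 measured, median 0.13 with metastin-10 under control siRNA). The somatostatin receptor gene SSTR1 was at 0.34 ± 0.13 (limma adjusted p = 0.371) and the neuropeptide Y receptor gene NPY1R at -0.26 ± 0.10 (0.352). In the kisspeptin to gonadotropin-releasing hormone axis (11 of 12 measured, median 0.11) no gene was called. The receptor and axis lists had low median levels, 4.22 and 4.12, and the marker lists of low level shifted up likewise. OPRK1, the receptor for dynorphin, was at -0.42 ± 0.12 (adjusted p = 0.207), and PDYN, the dynorphin precursor, at 0.18 ± 0.09 (adjusted p = 0.498).

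Among 21 measured genes of receptor coupling and desensitisation, 1 fell with metastin-10 under control siRNA and none rose, with a list median of 0.01. Of all probe sets, 0.428% were called there and 0.386% were lower. It was GNAI1, which encodes an inhibitory G protein alpha subunit. It read 9.87, 9.95 and 9.85 with control peptide and 9.37, 9.50 and 9.50 with metastin-10, a difference of -0.43 ± 0.08 (SE; limma adjusted p = 0.0348). Its other probe set was at -0.31 and did not pass. The Gq gene GNAQ (0.04), the G11 gene GNA11 (0.16) and the phospholipase gene PLCB1 (0.01) were not called. Leaving out 1 array ended the GNAI1 call in 10 of 12 fits, all but those without replicate 1 of GPR54 siRNA with control peptide or replicate 3 of GPR54 siRNA with metastin-10, with differences from -0.46 to -0.39.

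With metastin-10 present, 2 of these 21 genes were higher in the arrays labelled GPR54 siRNA and none was lower, at a list median of -0.06 against 0.0007 over all genes. This comparison uses the same control siRNA, metastin-10 arrays as the one before, so its calls are not separate from the fall there. Of all probe sets, 0.579% were called there and 0.527% were higher. GNAI1 was higher by 0.49 ± 0.08 (adjusted p = 0.0132), and its other probe set, at 0.30, did not pass. RGS16, which speeds GTP hydrolysis on G proteins of the Gi and Gq families, was higher by 0.66 ± 0.13 (SE; limma adjusted p = 0.0462). RGS16 read 6.43, 6.47 and 6.22 with control siRNA and metastin-10 and 7.24, 7.09 and 6.77 in the labelled arrays. With control peptide it read 7.01, 7.07 and 6.74 after control siRNA and 7.12, 6.98 and 6.87 under the label. Neither of its dimmer probe sets passed (0.38 and -0.03). With metastin-10 under control siRNA the brightest was at -0.57, also without a call (adjusted p = 0.104). The GNAI1 call was lost without replicate 1 of control siRNA with metastin-10, or without replicate 1 or 2 of the labelled metastin-10 arrays (0.44, 0.48 and 0.46). The RGS16 call remained in 2 of 12 fits, those without replicate 3 of control siRNA with control peptide or of the labelled metastin-10 arrays, over a range of 0.56 to 0.79.

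Precursor processing and peptide cleavage genes (14 of 16 measured, median 0.07) were not called. CPE, the carboxypeptidase that trims neuropeptide precursors, was at -0.42 ± 0.12 with metastin-10 under control siRNA (limma adjusted p = 0.19). PAM, which makes the amide end of peptides such as the kisspeptins, was at -0.29 ± 0.08 (adjusted p = 0.199).

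Of the 13 genes reported to act on KISS1 or KISS1R transcription, 1 fell and 0 rose with metastin-10 under control siRNA, at a list median of -0.12, where 0.386% of all probe sets were called lower. TXNIP, a thioredoxin-binding protein placed upstream of KISS1 in melanoma cells, read 11.76, 11.73 and 11.66 with control peptide and 11.26, 11.24 and 11.15 with metastin-10. The difference was -0.50 ± 0.08 (SE; limma adjusted p = 0.0134), and a further TXNIP probe set was at -0.46 and passed (adjusted p = 0.0215), while the third, at -0.50, did not (0.422). With metastin-10 it was 0.41 ± 0.08 higher under the GPR54 siRNA label (limma adjusted p = 0.0337), against the same control siRNA, metastin-10 arrays. Its mean there was 11.62, and 11.72 with control siRNA and control peptide. The first call was lost without replicate 1 or 2 of control siRNA with control peptide (-0.48 and -0.49) or replicate 2 of control siRNA with metastin-10 (-0.51). The second was lost in 9 of 12 such fits, all but those without replicate 1 or 3 of GPR54 siRNA with control peptide or replicate 3 of GPR54 siRNA with metastin-10, at 0.38 to 0.45.

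None of the genes of these 6 lists was called in the other 3 comparisons, which had few calls at all. Of all probe sets, 0% were called for metastin-10 under the GPR54 siRNA label. The share was 0.0531% for the siRNA label with control peptide and 0.0513% for the interaction. Fitted on only the 2 groups compared, the calls of GNAI1, RGS16 and TXNIP were all lost, with adjusted p from 0.0930 for TXNIP to 0.275, also for TXNIP. Over the 10 alternative settings, GNAI1 lost its call in 3 for metastin-10 and 2 for the siRNA label, TXNIP in 3 for each, and RGS16 in 2.

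**Figure D4:**
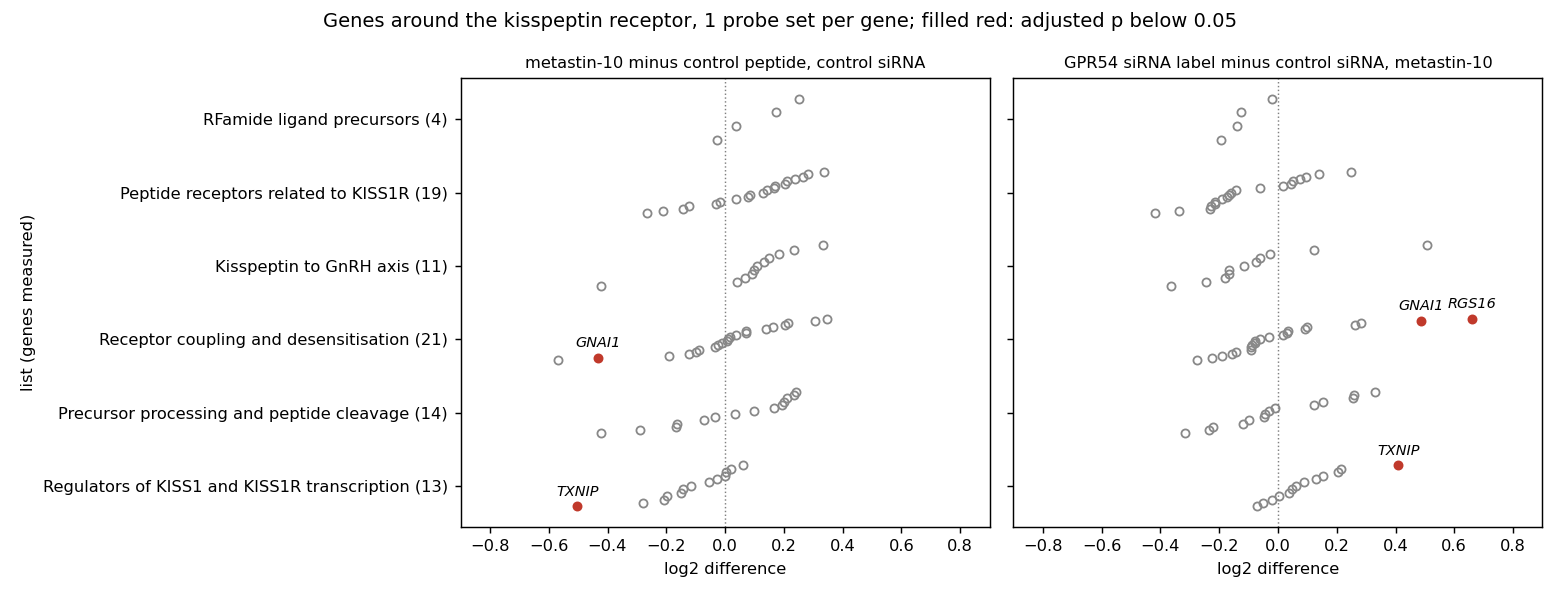
Log2 difference (horizontal axis) of each measured gene in 6 lists around the kisspeptin receptor, for metastin-10 against control peptide with control siRNA (left) and for the GPR54 siRNA label against control siRNA with metastin-10 (right). Filled red points passed the adjusted threshold: GNAI1 (-0.43) and TXNIP (-0.50) on the left, GNAI1 (0.49), RGS16 (0.66) and TXNIP (0.41) on the right.

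Marker genes are given by their log2 values, means of 12 arrays. Since values of different probe sets do not rank amounts of RNA and detection calls were not used here, they describe the cells and do not test the label. The 8 epithelial markers ran from 7.81 (MUC1) to 13.99 (KRT18), with EPCAM at 13.05. The 6 measured endometrial or Mullerian markers ran from 4.38 (PGR) to 10.84 (SOX17). For the other cells, the 7 stromal markers ran from 2.56 (LUM) to 9.84 (COL1A1) with a median of 4.82, the 6 endothelial ones from 3.05 (KDR) to 6.97 (VWF) with a median of 4.39, and the 4 measured leukocyte ones from 3.48 (PTPRC) to 5.20 (CD3E). The 7 neuronal and neuroendocrine markers ran from 3.28 (GNRH1) to 7.92 (CHGA), with a median of 5.30. The mean of the 8 epithelial markers lay at 11.30 to 11.40 in control siRNA with metastin-10 and at 11.53 to 11.65 over the other 9 arrays, so it was lowest in the same group as KISS1R. All 8 had differences below 0 with metastin-10 under control siRNA, from -0.48 to -0.02. Of these, 1 fell, KRT19 (-0.48, limma adjusted p = 0.009), while its dimmer probe set was at 0.17 and not called. With metastin-10 present 2 were higher under the GPR54 siRNA label, KRT19 (0.59) and MUC1 (0.57), each at its brightest probe set only. The same control siRNA, metastin-10 arrays enter both comparisons. Of all probe sets, 0.386% were called lower in the former comparison and 0.527% higher in the latter. The shift was not confined to epithelial markers. With metastin-10 under control siRNA the list median was -0.23 for epithelial and -0.16 for endometrial or Mullerian markers. For the lists with lower median levels it was above 0: stromal 0.11, endothelial 0.11, leukocyte 0.23, neuronal and neuroendocrine 0.07. The part of these shifts in the KISS1R result was not tested. The neuroendocrine marker CHGA was called lower under the GPR54 siRNA label with metastin-10, at -0.45 (limma adjusted p = 0.0422). In that comparison 0.579% of all probe sets were called in either direction. CHGA averaged 7.90 with control siRNA and control peptide and 8.24 with control siRNA and metastin-10, its highest group. Under the GPR54 siRNA label it averaged 7.74 with control peptide and 7.79 with metastin-10. These marker calls were not equally stable: CHGA lost its call in 11 of 12 fits without 1 array and in 4 of 10 other settings, and MUC1 in 7 of 12 and 3 of 10. KRT19 lost its call for metastin-10 in 2 of 12 and 3 of 10, and for the siRNA label in 0 of 12 and 2 of 10. Fitted on only the 2 groups compared, none of these calls was kept (adjusted p from 0.0724 for KRT19 to 0.275 for CHGA). No marker of stroma, endothelium or leukocytes was called in any comparison, where at most 0.579% of all probe sets were called.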

How the data were processed

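The authors deposited 1 table of log2 values from Affymetrix U133 Plus 2.0 arrays, made by RMA per the submitters' processing notes. The software version is not given in the sources used here. Because RMA equalises the distributions of the arrays, it would hide any general shift. Of 54675 probe sets, 62 controls were left out and the other 54613 tested with no filter on level. Symbols came from the platform annotation, checked by Entrez identifier. A list gene was read by its brightest probe set. The model, in limma 3.58.1 under R 4.3.3, had a mean for each of the 4 groups, with two-sided tests and 8 residual degrees of freedom before moderation. The 5 contrasts were adjusted by Benjamini-Hochberg over all tested probe sets, at a threshold of 0.05. The fit was checked on simulated data. The members and lists were chosen with earlier results of these data known. Named genes are all members, every list gene past the threshold in any contrast or else the 2 with the smallest p under control siRNA with metastin-10, and the 8 genes most like and 4 least like KISS1R by Pearson r. Further genes were named after their values were seen. Deviations of same-numbered arrays correlated by over 0.1 in every pair for both metastin-10 comparisons (0.17 to 0.52) and the siRNA comparison with control peptide (0.11 to 0.54), which by the rule used pairs those arrays, but by -0.15 to 0.26 for the siRNA comparison with metastin-10. The main fit did not use this pairing, and the replicate block is given as an alternative. For arrays, their number limits the precision.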

Additional observations from a re-analysis of the deposited data

Results flagged for a closer look

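The metastin-10 effect on KISS1R differed between the siRNA labels by 0.89 on the log2 scale in a test of the difference itself (limma interaction, adjusted p = 0.049955). All 3 same-numbered differences with control siRNA were below 0 (-0.96, -0.90 and -0.78), while under the GPR54 siRNA label they were 0.14, -0.03 and -0.09.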

How the results depend on the processing

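The fall of KISS1R with metastin-10 under control siRNA and its higher level under the GPR54 siRNA label with metastin-10 kept their direction and their call in 8 other fits and scalings (-0.91 to -0.83 and 0.99 to 1.05) and without any 1 array (-0.96 to -0.83 and 0.95 to 1.11). With control siRNA and metastin-10 reduced to replicate 3, an alternative chosen after seeing the data, they were -0.93 and 1.08 and neither passed, so the member count went from 1 to 0 in both; that fit has 1 array in the group. The KISS1R interaction was called in the main fit at 0.89, and not with median centring (0.91), with replicates 1 and 2 only (0.98, also chosen after seeing the data), or with that reduced group (0.94), and the member count there was 0. The interaction was called with the replicate block, replicate 3 blocked against the rest, array weights, and a second quantile normalization. It was also called with only probe sets above the median level and with a trend and robust prior. In these fits it was 0.85 to 0.89, with limma adjusted p from 0.00456 to 0.0410. Without any 1 array it ran from 0.81 to 0.97 and the member count from 0 to 1. The cause was not tested.

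The replicate block gave KISS1R the same differences (adjusted p = 0.00123, 0.000253 and 0.0228 for metastin-10 with control siRNA, the siRNA label with metastin-10 and the interaction) and changed no call of a member. No other member passed under any alternative, and KISS1, NPFFR2, PRLHR and QRFPR had no value where only probe sets above the median level were kept. The interaction has no fit of only the 2 groups compared.

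The number of probe sets called for metastin-10 with control siRNA was 234, and 77 with only the 2 groups, 422 with the replicate block, 532 blocking replicate 3 against the rest, 495 with array weights, 397 with a trend and robust prior, 1 with the reduced group and 71 to 263 without 1 array. For the siRNA label with control peptide it was 29, and in the same order 9, 51, 87, 130, 56, 17 and 3 to 44, with 10 above the median level and 0 with replicates 1 and 2. For the siRNA label with metastin-10 it was 316, and 57, 504, 602, 2016, 525, 12 and 129 to 332, with 597 above the median level. For the interaction it was 28, and 45 with the replicate block, 73, 250, 88, 0 and 6 to 32 for the remaining settings in that order, with 45 after a second quantile normalization, 55 above the median level and 2 with replicates 1 and 2. It was 0 under every setting for metastin-10 under the GPR54 siRNA label, where 1206 had an unadjusted p under 0.05. Of the 8 genes most like KISS1R, 2 remained by Spearman's rho and 5 to 8 without 1 array. KRT19 lost its call for metastin-10 with control siRNA without replicate 2 of control peptide (-0.47) or replicate 1 of metastin-10 (-0.47), MUC1 lost its call for the siRNA label with metastin-10 in 7 of 12 such fits (0.50 to 0.64), each one without an array of metastin-10 with control siRNA, replicate 1 or 2 of control siRNA with control peptide, or replicate 1 or 2 of the labelled metastin-10 arrays. CHGA lost its in all but the fit without replicate 2 of control siRNA with metastin-10 (-0.52 to -0.41).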
